A study of Homo sapiens with 10 samples.

Results

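The sensitive WM278 melanoma line, which carried little MITF mRNA, was compared with 4 sensitive melanoma lines that carried much of it. The members described are the genes whose level in the WM278 library lay at least 2-fold outside the range of the other 4 libraries, so they were chosen by the levels measured in these same libraries. Levels are given as CPM, the counts of a gene scaled to a library total of 1000000 counts. The WM278 library was set apart because its MITF level was under 50 CPM, and the other 4 libraries, WM983A, WM983B, WM1617 and WM902B, are called MITF-high. A gene was considered if it reached 1 CPM in at least 1 of the 5 sensitive libraries, which held for 18831 of the 57955 genes listed, and a level at or under 3 counts was taken as 3 counts. Of the genes considered, 1342 lay above the MITF-high range in WM278 (7.13%) and 1158 lay below it (6.15%), which makes 2500 members in all.

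The series holds 10 bulk mRNA libraries of 5 human BRAF-mutant melanoma cell lines. Each line was sequenced once in its sensitive state, grown without inhibitor, and once as a resistant derivative (E+BRes), which had been grown in rising doses of the BRAF inhibitor encorafenib and the MEK inhibitor binimetinib, from 1 nM to 200 nM, and was then kept in 200 nM. WM983A, WM278 and WM902B are labelled as lines of primary tumours, and WM983B and WM1617 as metastatic. According to the study's list of lines, WM278 and WM1617 came from a primary tumour and a metastasis of the same patient, as did WM983A and WM983B. Each line has 1 library in each state, so WM278 stands alone on its side, no spread between replicates could be measured, and no difference is given with a p-value. The libraries held 13693922 to 18033247 counts, and 3 counts corresponded to 0.166 to 0.219 CPM. The intervals given below and this floor cover counting error only. A lower level in a bulk culture can come from fewer cells that express a gene or from less RNA per cell, and these cannot be told apart.

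MITF encodes the transcription factor that drives the melanocyte programme: it binds short E-box motifs, among them CATGTG, in front of genes for melanin synthesis and melanosome structure. SOX10, a neural crest factor, acts upstream of MITF. Melanoma cultures with little MITF often carry the receptor tyrosine kinase AXL together with matrix, cytoskeletal and secreted genes, a state called dedifferentiated or invasive.

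MITF itself, which set the WM278 library apart, was at 10.1 CPM there, with a 95% Wilson interval of 8.68 to 11.7. The MITF-high libraries had 393 CPM in WM983A, 271 in WM983B, 629 in WM1617 and 389 in WM902B. SOX10 did not follow MITF: its level was 299 CPM in WM278, against 349 in WM983A, 315 in WM983B, 345 in WM1617 and 308 in WM902B. All 5 sensitive libraries thus held SOX10 within a narrow band, and WM278 was not a member for this gene. AXL was at 689 CPM in WM278, at 220 in WM983A, 253 in WM983B and 125 in WM902B, and at 8.08 in WM1617. WM278 had the highest AXL level, 2.73-fold above the next library, and WM1617 stood far below the rest. The labels give WM278 as a melanoma line, and the 3 genes together show a culture with retained SOX10, low MITF and high AXL. NGFR, a receptor of neural crest-like melanoma cells, was at 1.14 CPM in WM278 and at 1.25 CPM in WM1617, against 224 to 1628 CPM in the other 3 libraries. NGFR was no member, and other neural crest-like genes differed from it. Of the 13 considered, 3 lay above the MITF-high range and 2 below it, against 7.13% and 6.15% of all genes considered. Their median difference from the median of the MITF-high libraries was 0.72 on the log2 scale.

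**Figure D1:**
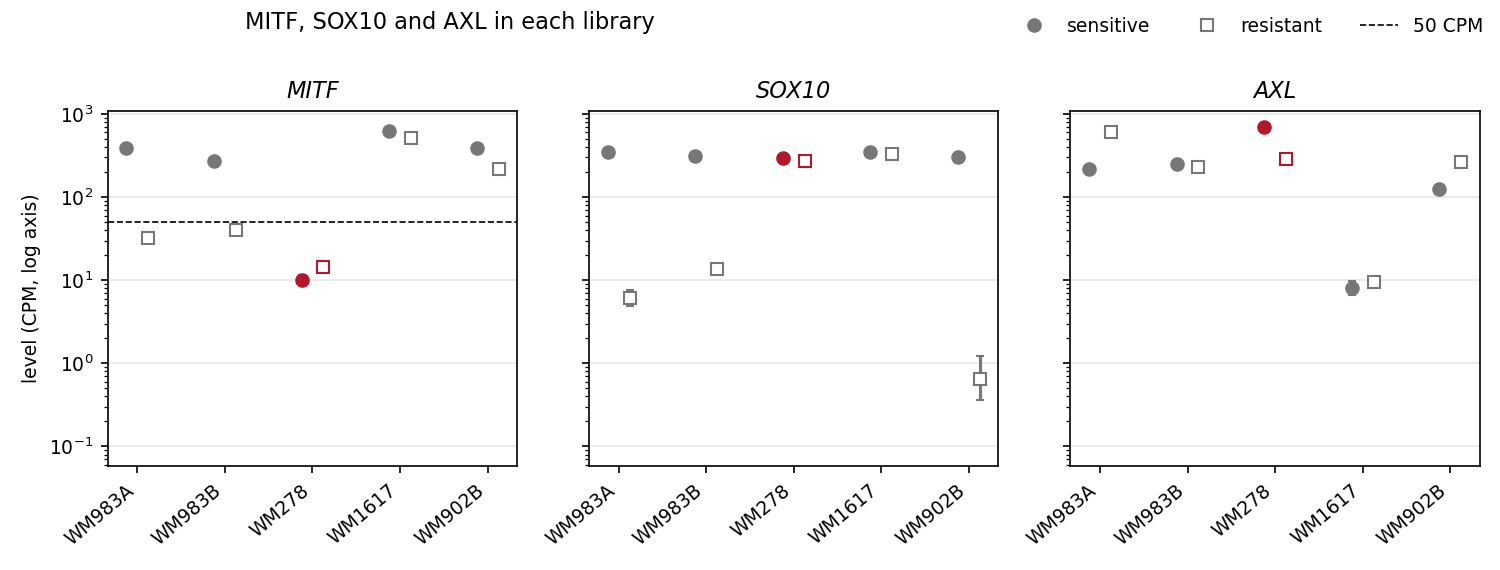
Levels of MITF, SOX10 and AXL in CPM on a log axis in each library, with sensitive libraries as filled circles, resistant ones as open squares and WM278 in red. Bars are 95% Wilson intervals of the counts and the dashed line marks the MITF limit of 50 CPM. Among the sensitive libraries WM278 alone lies under the line for MITF, at 10.1 CPM, while its SOX10 level of 299 CPM lies beside those of the other lines.

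In the resistant libraries, which played no part in choosing the members, MITF was at 14.4 CPM in WM278, 32.6 in WM983A and 39.8 in WM983B, and at 217 in WM902B and 511 in WM1617. The low MITF level of WM278 was therefore seen in both of its libraries, and resistant WM983A and WM983B were also under 50 CPM. SOX10 was at 273 CPM in resistant WM278 and 327 in resistant WM1617, but at 6.15 in WM983A, 13.6 in WM983B and 0.655 in WM902B. AXL was at 285 CPM in resistant WM278, between the 610 CPM of WM983A and the 9.45 CPM of WM1617.

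The pigment genes formed the clearest group of members below the range. Of the 23 pigment and melanosome genes considered, 12 lay below the MITF-high range, none above it and 11 within 2-fold of it. Over all genes considered the shares were 6.15% below and 7.13% above. The median difference of the 23 genes from the median of the MITF-high libraries was -2.93 on the log2 scale. Over all genes considered it was -0.14. The sequences in front of 7 of these 12 genes are shown. Genes listed with more than 1 promoter were left out, a usable promoter sequence was at hand for these 7 alone, and all 7 hold the CATGTG motif that MITF binds. The other 5, DCT, PMEL, SLC45A2, CAPN3 and MREG, were not searched. The promoter sequences are those of RefSeq on GRCh38.p14, of which only the 250 bases before the gene's start were searched, on both strands, so that CATGTG also appears as CACATG. Each stretch runs 5′ to 3′ along its gene from 12 bases before the first match to 12 bases after the last one, or to the gene's start, with the matches in capitals.
TYR (chr11:89177759-89177874, plus strand): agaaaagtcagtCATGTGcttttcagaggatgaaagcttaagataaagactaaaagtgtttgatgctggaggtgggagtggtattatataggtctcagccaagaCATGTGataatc
TYRP1 (chr9:12693229-12693384, plus strand): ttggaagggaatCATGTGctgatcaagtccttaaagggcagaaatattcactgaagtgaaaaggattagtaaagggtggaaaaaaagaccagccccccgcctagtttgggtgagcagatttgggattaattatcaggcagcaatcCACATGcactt
GPNMB (chr7:23246640-23246730, plus strand): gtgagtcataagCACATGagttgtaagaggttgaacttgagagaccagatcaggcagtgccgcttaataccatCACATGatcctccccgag
GPR143 (chrX:9765863-9765920, minus strand): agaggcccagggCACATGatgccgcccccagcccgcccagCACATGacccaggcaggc
OCA2 (chr15:28099451-28099480, minus strand): tgtgggcggggcCATGTGggcagctttgtg
SLC24A5 (chr15:48120963-48120989, plus strand): aaggagactcctCACATGatccagttt
MC1R (chr16:89918786-89918815, plus strand): tcacgcccccggCATGTGgccgccctcagt
The pair of matches in front of TYR, which encodes tyrosinase, the first enzyme of melanin synthesis, lies close to its start, the nearer 12 bases before it. TYRP1, a melanin-synthesis enzyme related to tyrosinase, also holds 2 matches, the nearer 11 bases before its start. GPNMB, a melanosome and lysosome glycoprotein, and GPR143, the receptor mutated in ocular albinism, hold 2 matches each. OCA2 and SLC24A5, transport proteins of the melanosome, and MC1R, the melanocortin receptor, hold 1 match each. Of the pigment genes within 2-fold of the range, 5 had a promoter sequence and 1 of these, GPR137B, held the motif.

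Several of the pigment genes were at 1 CPM or less in WM278. TYR was at 0.53 CPM in WM278, against 141 in WM983A, 58.8 in WM983B, 228 in WM1617 and 40.8 in WM902B. DCT, which encodes dopachrome tautomerase, was at 0.884 CPM in WM278 and at 584, 479, 709 and 311 CPM in WM983A, WM983B, WM1617 and WM902B, so that the lowest MITF-high library was 352-fold higher. PMEL, the protein of the melanosome's fibrils, was at 4.15 CPM in WM278, against 1438 in WM983A, 473 in WM983B, 2023 in WM1617 and 1399 in WM902B. For these 3 genes every MITF-high library was at least 76.8-fold above WM278. SLC24A5, an ion exchanger of the melanosome, was at 0.177 CPM in WM278, which is no more than 3 counts, and between 15.3 and 98.9 CPM in the MITF-high libraries. SLC45A2, a melanosomal transporter, was at 0.118 CPM, against 16.6 to 112. OCA2, a melanosomal ion transport protein, had no reads in WM278 and 1.43 to 6.95 CPM in the other libraries, at least 8.09-fold higher.

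Other pigment genes differed less. GPNMB was at 95.1 CPM in WM278 and at 794, 725, 725 and 486 CPM in WM983A, WM983B, WM1617 and WM902B. MC1R was at 7.31 CPM, 2.10-fold under the lowest MITF-high library, which was WM983B at 15.3 CPM. MREG, a regulator of melanosome transfer, was at 13.7 CPM, against 38.8 to 81.7. TYRP1 was at 0.236 CPM in WM278, but it was also low in WM902B, at 0.712, and in WM1617, at 1.05, with 31.1 in WM983A and 254 in WM983B. MLANA, the melanoma antigen MART-1, shows the same kind of overlap and was no member: it was at 0.71 CPM in WM278 and at 0.927 in WM983B, against 36.5 in WM983A, 192 in WM902B and 534 in WM1617. MYO5A, a motor protein of melanosome transport, and RAB27A, a GTPase that binds it to melanosomes, were no members: MYO5A was at 172 CPM in WM278 within a range of 92.5 to 195, and RAB27A at 41.4 CPM beside 42.8 to 201.

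**Figure D2:**
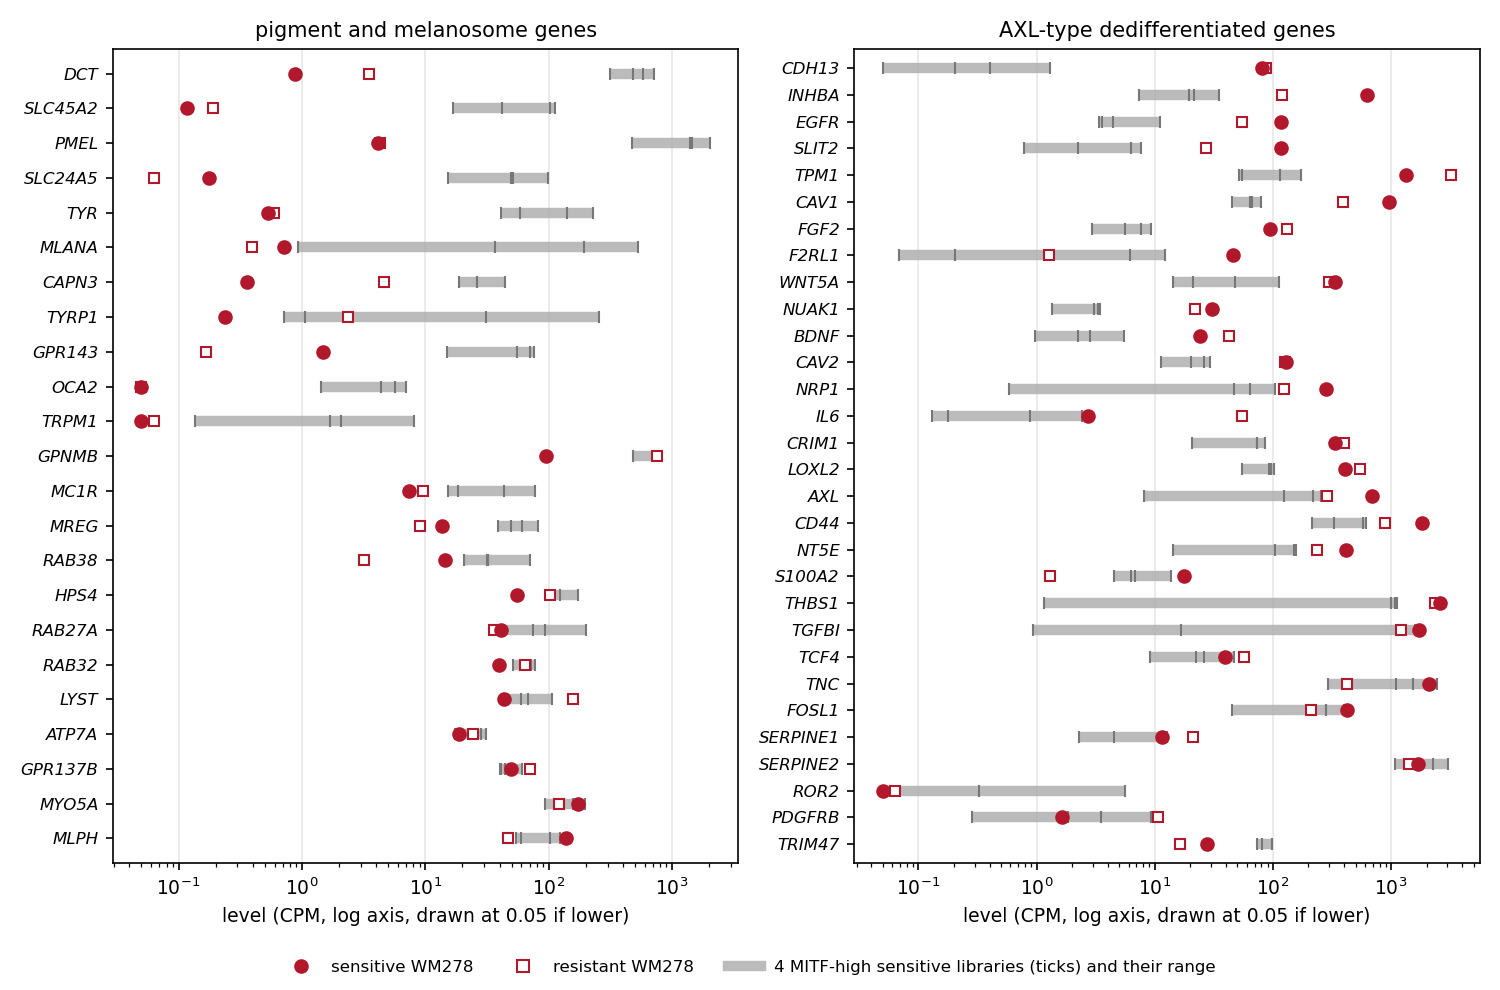
Levels in CPM on a log axis of the 23 pigment and melanosome genes considered (left) and the 30 AXL-type genes considered (right). Grey bars and ticks give the range and the single values of the 4 MITF-high sensitive libraries, red circles sensitive WM278 and open squares resistant WM278, and levels under 0.05 CPM are drawn at 0.05. DCT, PMEL and TYR lie far left of the grey bars, and CDH13, INHBA and EGFR far right of them.

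MITF targets outside pigmentation showed a like pattern, with 7 of 14 below the range and none above it. Their median was -1.97 on the log2 scale. Over all genes considered, 6.15% lay below the range and 7.13% above it. BIRC7, which encodes the apoptosis inhibitor ML-IAP, was at 0.825 CPM in WM278, against 122 in WM983A, 39.7 in WM983B, 289 in WM1617 and 160 in WM902B. Of the 7 targets below the range 2 had a promoter sequence, and BIRC7 held CATGTG while GYG2 did not. Of the 7 targets within 2-fold of the range 4 had one, and BCL2A1 held the motif. In BIRC7 it begins 27 bases before the start:
BIRC7 (chr20:63235866-63235895, plus strand): cgctgcacagagCATGTGaccccagaggcc
CDK2, a kinase of the cell cycle, was at 69.5 CPM in WM278 and at 331, 223, 370 and 244 CPM in WM983A, WM983B, WM1617 and WM902B. PPARGC1A, a coactivator of mitochondrial genes, was at 2.89 CPM, against 9.67 to 31.9. Of the 10 melanocytic signalling genes considered, 3 lay below the range and none above it, against 6.15% and 7.13% of all genes considered. Their median was -1.40 on the log2 scale. The other 7 lay within 2-fold of the range, among them EDNRB, at 192 CPM within 31.3 to 247. S100A1, a calcium-binding protein, was at 1.28 CPM in WM278 and at 75.4 to 98.3 CPM in the MITF-high libraries.

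Over all genes, the CATGTG motif was found in 8.93% of the 448 promoter sequences available for protein-coding genes below the range and in 4.85% of the 515 available for those above it. The share was 5.53% of the 7763 promoters of all protein-coding genes considered. CACGTG, the E-box that many related factors bind, was in 9.60%, 7.57% and 9.16% of these 3 sets. TGANTCA, the AP-1 motif, was in 3.35%, 4.27% and 3.77%, and GGAATG, the core of the TEAD motif, in 9.82%, 12.4% and 9.29%. Matches to different motifs may overlap, and a promoter was counted once however many matches it held. None of these shares was tested. No promoter of the 9 AXL-type genes above the range with a sequence held either E-box or the AP-1 motif, and 2 held the TEAD motif.

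Among 10 transcription factors of the melanocyte lineage, 2 lay below the range and 1 above it. Of all genes considered, 6.15% lay below the range and 7.13% above it. Besides MITF, RXRG, a retinoid receptor, was below it: 0.472 CPM in WM278, against 33.2 in WM983A, 16.9 in WM983B, 56.9 in WM1617 and 18.6 in WM902B. PAX3, which acts with SOX10 upstream of MITF, was at 28.1 CPM in WM278 and 26.5 to 47.6 CPM in the other libraries. TFAP2A, an AP-2 factor of melanocytes, was at 93.6 CPM beside 65.8 to 93.2, and IRF4, a partner of MITF at the TYR gene, at 33.4 CPM within 11.6 to 35.9. PAX3, TFAP2A and IRF4, like SOX10, were thus present in WM278 at levels like those of the MITF-high lines. LEF1 was at 64 CPM in WM278 beside 68 to 268, ETV1 at 131 CPM beside 60.6 to 81.8 and DLX2 at 35.8 CPM beside 4.15 to 21.1. None of these was a member. Of the MITF relatives, TFE3 was at 68.6 CPM in WM278 and 33.6 to 44.7 CPM in the others, TFEB at 1.27 CPM within 0.92 to 5.69, and TFEC at 1 CPM, with at most 1 count in any other sensitive library. TFEC was at 14.7 CPM in resistant WM278 and at most 0.858 CPM in the other resistant libraries.

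Many of the genes beside MITF on chromosome 3 were low in WM278 as well. This was noticed, and the distances were set, after the values had been seen. Of the 20 protein-coding genes considered within 5 Mb of MITF (chr3:69739456-69968336, plus strand in GENCODE release 44), MITF left out, 13 lay below the MITF-high range and none above it. That is 65%, against 5.98% of the 13796 other protein-coding genes considered and 7.61% of the 762 others on chromosome 3. The median difference of the 20 genes was -2.12 on the log2 scale, against -0.11 for the other genes. UBA3, a subunit of the enzyme that activates NEDD8 in every cell, was at 75.3 CPM in WM278 and at 518, 209, 337 and 364 CPM in WM983A, WM983B, WM1617 and WM902B. PPP4R2, a regulatory subunit of protein phosphatase 4, was at 87.7 CPM in WM278 and at 280, 356, 750 and 576 CPM in the same 4 libraries. ARL6IP5, a membrane protein of the endoplasmic reticulum, was at 137 CPM, against 416 to 767. These genes lie on both sides of MITF. SHQ1, which assembles small nucleolar ribonucleoproteins, was at 18.9 CPM beside 89.5 to 196, and EIF4E3, a cap-binding protein, at 0.354 CPM beside 16.8 to 24.0. FRMD4B, a scaffold protein next to MITF, was at 10.6 CPM in WM278 and at 51.7 to 149 CPM in the MITF-high libraries. FOXP1, a transcription factor, was at 8.1 CPM in WM278 and 9.51 to 33.4 CPM in the others, so that it was no member. The other 6 genes that were no members were FAM19A4, SLC25A26, SUCLG2, LRIG1, MAGI1 and KBTBD8. Of these LRIG1 was at 41.5 CPM within 21.4 to 124, MAGI1 at 22.8 CPM within 6.43 to 163 and KBTBD8 at 11.7 CPM within 8.34 to 28. EIF4E3 and GPR27 overlap on the genome, as do PPP4R2 with GXYLT2 and EBLN2, and SLC25A26 with LRIG1. Reads may have been shared between such overlapping genes.

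MITF itself lay farther below the range than all but 1 of these neighbours. The lowest MITF-high library was 26.9-fold above WM278 for MITF and 47.4-fold above it for EIF4E3, against 2.78-fold for UBA3 and 3.2-fold for PPP4R2. When 20 consecutive protein-coding genes were taken at a time along each chromosome, the window with the most genes below the range, of 13380 overlapping windows, was one that holds MITF. It ran from 66998307 to 77649964 on chromosome 3 and had 15 of 20 genes below the range, while the next distinct windows had 8. With 2 Mb on each side of MITF the share below the range was 77.8% of 9 genes, with 10 Mb 52.9% of 34 and with 20 Mb 16.7% of 138. The DNA of these lines was not analysed here, and its part in these levels was not tested.

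**Figure D3:**
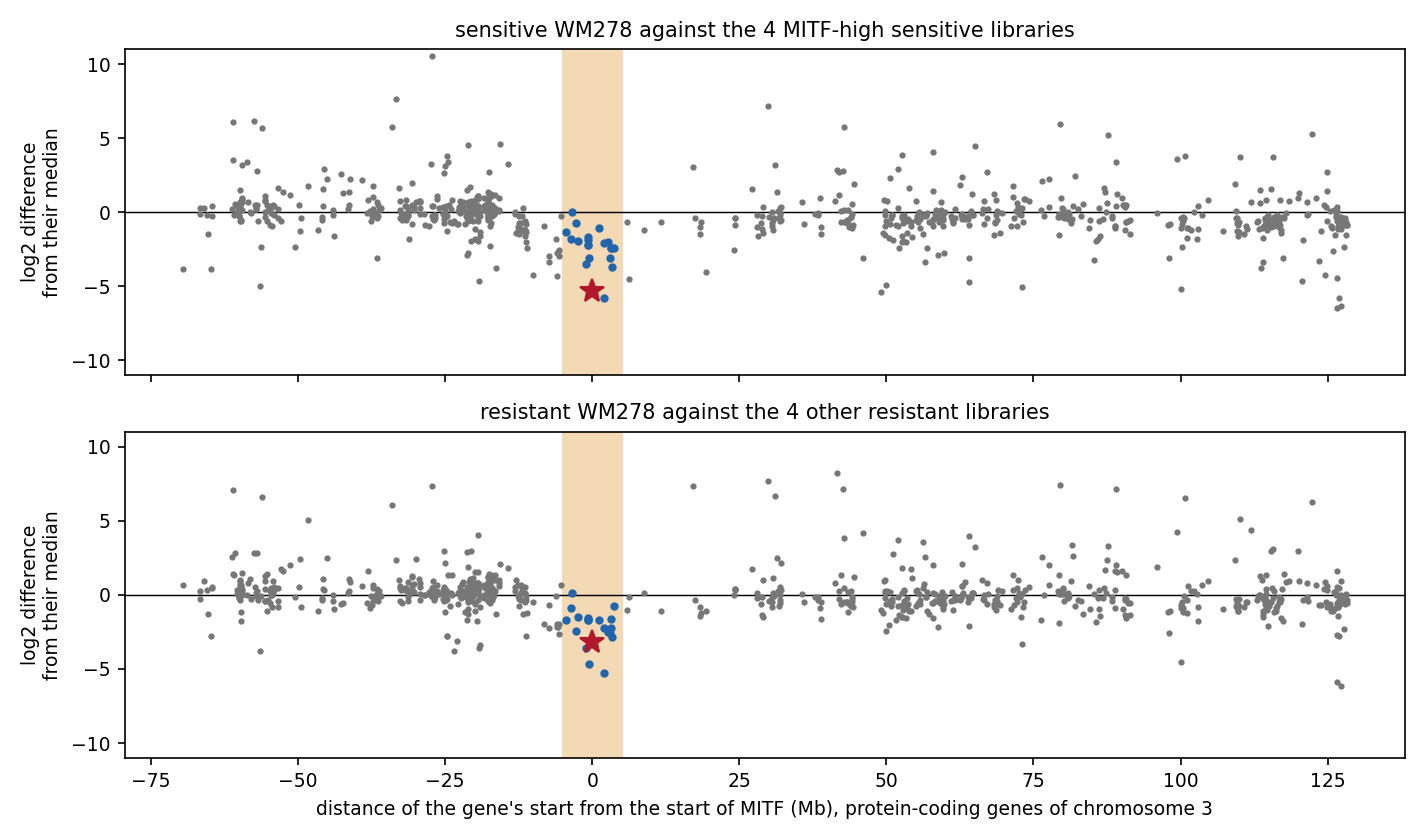
Log2 difference of WM278 from the median of the 4 other libraries of the same state for each protein-coding gene considered on chromosome 3, against the distance of the gene's start from that of MITF in Mb. The upper plot is the sensitive state and the lower plot the resistant state, the red star is MITF and the blue points lie within 5 Mb of it. The points in the shaded band have a median of -2.12 in the sensitive state and -1.72 in the resistant state.

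In the other sensitive lines the same 20 genes had median differences from the remaining lines of -0.08 (WM983A), -0.74 (WM983B), 0.70 (WM1617) and 0.54 (WM902B). Among the resistant libraries, the median was -1.72 in WM278, -2.41 in WM983A, 0.01 in WM983B, 1.08 in WM1617 and 1.69 in WM902B. Resistant WM983A and WM983B, which both had MITF under 50 CPM, thus had unlike medians. Resistant WM983A had 67.3 CPM of UBA3 and 99.0 CPM of PPP4R2, beside 74.5 and 84.2 CPM in resistant WM278. Of the 20 genes, 3 lay below the range of the other 4 resistant libraries in WM278, and 13 did when resistant WM983A was left out, a setting added after the data were seen.

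The AXL-type genes formed the largest group of members above the range. Of 30 genes considered, 19 lay above it, 1 below it and 10 within 2-fold of it. Their median was 2.15 on the log2 scale. Of all genes considered, 7.13% lay above the range and 6.15% below it. CAV1, the main protein of caveolae, was at 957 CPM in WM278, against 79.9 in WM983A, 64.2 in WM983B, 45.2 in WM1617 and 66.9 in WM902B. TPM1, an actin-binding tropomyosin, was at 1328 CPM, against 172, 114, 51.4 and 54.3 in the same order. CD44, the hyaluronan receptor, was at 1820 CPM, against 617, 579, 214 and 330. In all 3 cases WM278 lay above the 4 MITF-high libraries, which for CD44 and TPM1 also differed widely among themselves. THBS1, a matricellular glycoprotein, was at 2576 CPM in WM278 but also at 1129, 1003 and 1081 CPM in WM983A, WM983B and WM902B, and at 1.15 CPM in WM1617. INHBA, a subunit of activin, was at 628 CPM, 18.0-fold above the highest MITF-high library, which was WM1617 at 34.8. WNT5A, a non-canonical WNT ligand, was at 338 CPM, 3.00-fold above WM983A. CDH13, a cadherin without a membrane-spanning part, was at 81.4 CPM, against at most 1.29 CPM in the others. TRIM47, a ubiquitin ligase, was the one gene of the list below the range, at 27.9 CPM beside 73.1 to 98.0. Several genes often named with AXL were no members: FOSL1, an AP-1 subunit, was at 427 CPM beside 402 in WM983A, and TNC, a matrix protein, at 2085 CPM within 291 to 2451.

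Receptor tyrosine kinases were split. Of 26 considered, 7 lay above the range and 2 below it, against 7.13% and 6.15% of all genes considered. EGFR was at 118 CPM in WM278, against 3.61 in WM983A, 11 in WM983B, 4.45 in WM1617 and 3.37 in WM902B, 10.8-fold above the highest. EPHA2, a receptor for ephrin-A ligands, was at 385 CPM, against 46.8 in WM983A, 92.5 in WM983B, 1.72 in WM1617 and 4.66 in WM902B. KDR, the main receptor for VEGF, was at 50.1 CPM in WM278 and at most 0.608 CPM in the others. EPHA3 went the other way, at 5.24 CPM in WM278 and 45.2 to 151 CPM in the MITF-high libraries, as did MERTK, a relative of AXL, which had 1 count in WM278 and was itself low in WM983A and WM983B, at 1.15 CPM in each. The ERK output genes are a gauge of signalling through BRAF and MEK. Of 20 considered, 3 lay above the range, none below it and 17 within 2-fold of it. Their median was 0.65 on the log2 scale, against -0.14 over all genes considered. With a limit of 1.5-fold, 6 lay above the range and none below it. DUSP6, a phosphatase of ERK, was at 230 CPM in WM278 beside 120 to 214 CPM in the other lines.

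**Figure D4:**
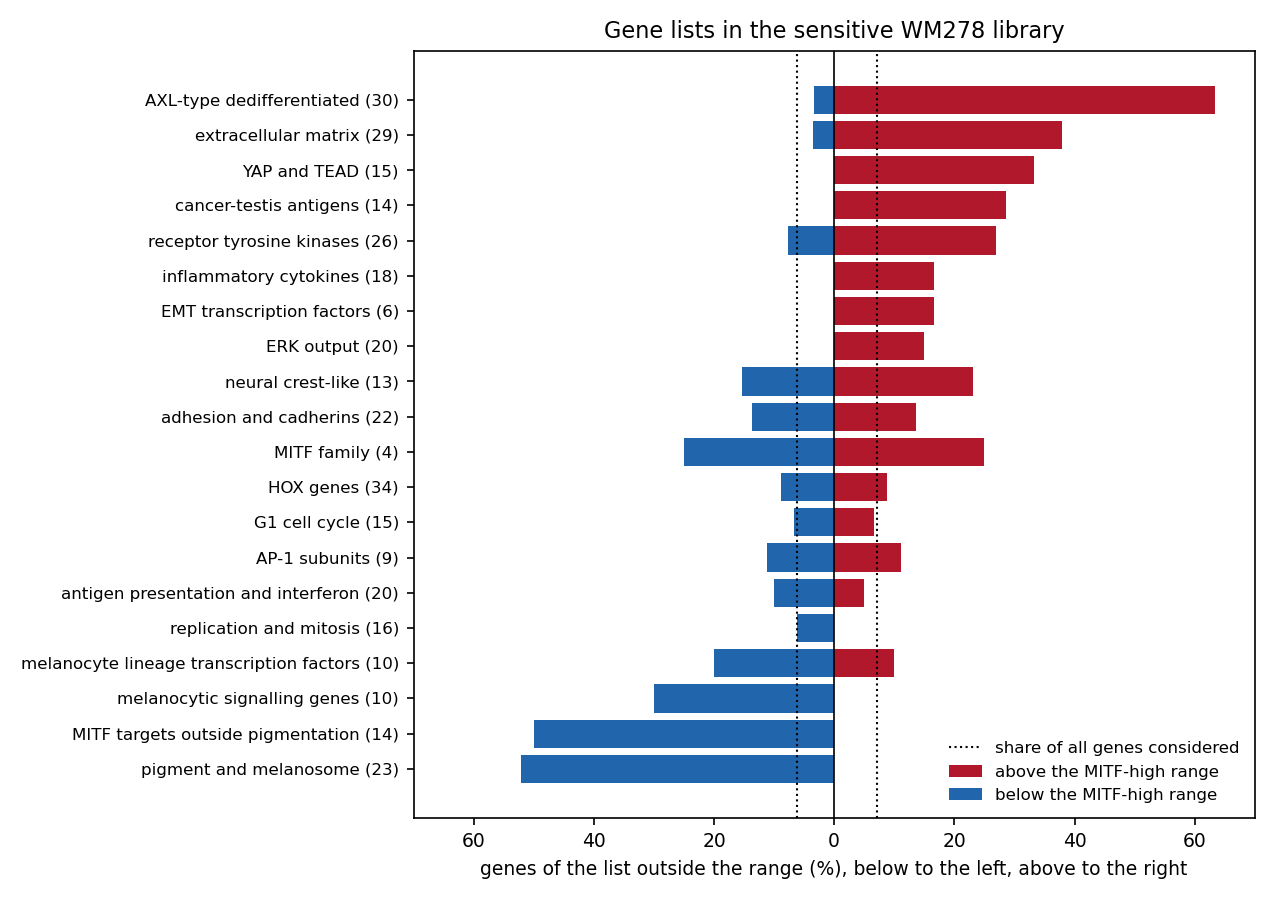
Share of each gene list that lay above (red, to the right) or below (blue, to the left) the MITF-high range in sensitive WM278, in percent of the genes considered, whose number stands in parentheses. Dotted lines mark the shares over all genes considered, 7.13% above and 6.15% below. AXL-type genes extend farthest to the right, with 19 of 30, and pigment genes farthest to the left, with 12 of 23.

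Matrix genes were the next group above the range, with 11 of 29 above it and 1 below it. Their median was 1.37 on the log2 scale. Over all genes considered, 7.13% lay above the range and 6.15% below it. COL4A2, a chain of basement membrane collagen, was at 1731 CPM in WM278, against 352 in WM983A, 402 in WM983B, 56.6 in WM1617 and 1.60 in WM902B. COL4A1, its partner chain, was at 701 CPM, against 141, 107, 37.3 and 0.905. COL5A2, a chain of fibrillar collagen V, was at 638 CPM in WM278 and at most 5.64 CPM in the others, 113-fold lower. LOX, which crosslinks collagens, was at 269 CPM, against 1.54 to 4.50, and LAMA4, a laminin chain, at 601 CPM, against 65.0 to 157. LUM, a proteoglycan and also a fibroblast marker, had no reads in WM278 and 5.58 to 78.9 CPM in the other libraries, so the lowest of these was at least 31.6-fold higher. No marker of another cell type that was considered lay above the range: this covers 7 of 9 fibroblast, 3 of 7 keratinocyte, 1 of 5 endothelial and 2 of 6 leukocyte markers. The summed level of the fibroblast markers, of which DCN and LUM lay below the range, was 25 CPM in WM278 and 13.6 to 91.2 CPM in the MITF-high libraries. The summed keratinocyte markers were at 54.7 CPM beside 23.4 to 47.5, the endothelial ones at 0.351 CPM beside 0.409 to 2.99 and the leukocyte ones at 8.04 CPM beside 8.41 to 79.8.

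Among 15 YAP and TEAD genes 5 lay above the range and none below it, with a median of 1.25. Over all genes considered the shares were 7.13% above and 6.15% below. CTGF, a secreted target, was at 496 CPM in WM278 and at 31.4, 39.4, 14.9 and 40.6 CPM in WM983A, WM983B, WM1617 and WM902B. CYR61, a related target, was at 316 CPM, but WM983B had 125 CPM and WM1617 0.429 CPM. AXL, CRIM1 and NT5E of this list are also in the AXL-type list. YAP1, the coactivator itself, was at 214 CPM in WM278 beside 63.8 to 119 and was no member. Of 9 AP-1 subunits 1 lay above the range and 1 below it. JUN was at 291 CPM, against 37.8, 24.0, 5.30 and 36.5 CPM. FOS was at 6.34 CPM beside 12.8 to 49.1 and lay just past the limit with plain CPM, but not with the TMM or DESeq2 scaling of libraries. Of 6 EMT transcription factors, TWIST2 was above the range, at 3.89 CPM beside at most 1.81. ZEB1 was at 36.1 CPM in WM278 but also at 23.2 CPM in WM1617, and it was under 5 CPM in the other 3.

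Inflammatory cytokines included 3 members of 18 considered, all above the range, where 7.13% of all genes considered lay. IL1B was at 696 CPM in WM278, against 16.9 in WM983A, 8.81 in WM983B, 0.0716 in WM1617 and 0.712 in WM902B, and IL1A, the related cytokine, was at 231 CPM, against at most 2.15 CPM. CCL20, a chemokine, was at 27.8 CPM beside 1.53 to 4.80. IL6 was at 2.74 CPM in WM278 and at 2.40 CPM in WM983B. Both IL-1 genes remained above the range in the resistant state, at 119 CPM for IL1B and 106 CPM for IL1A, while CCL20, at 2.28 CPM, did not.

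Of 15 genes of the G1 phase considered, 1 lay above and 1 below the range, shares near those over all genes (7.13% and 6.15%). CDKN1A, which encodes p21, was at 562 CPM in WM278, against 26.6 in WM983A, 31.9 in WM983B, 17.9 in WM1617 and 37.3 in WM902B. CDKN2A, which encodes p16 and p14ARF, was at 3.15 CPM, against 181, 228, 611 and 416 CPM. No MITF-high library came within 15.1-fold of WM278 for the former or within 57.5-fold for the latter, and both differences were also seen in the resistant state, with 331 and 4.03 CPM in WM278. The other 13 lay within 2-fold of the range. Of 16 replication and mitosis genes 1 lay below it, the kinase AURKB, at 27.7 CPM beside 99.2 to 181.

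Of 13 neural crest-like genes considered, 3 lay above and 2 below the range. For this list and those that follow, the shares over all genes considered were 7.13% above and 6.15% below. GDNF, a growth factor of enteric neurons and glia, was at 75 CPM in WM278 and at most 3.00 CPM in the others. L1CAM, a neural adhesion molecule, was at 27.2 CPM, against 319 to 479 CPM. Of 22 adhesion genes considered, 3 lay above the range and 3 below it. MCAM, an adhesion molecule of melanoma cells, was at 11.5 CPM in WM278 and at 726, 371, 742 and 737 CPM in WM983A, WM983B, WM1617 and WM902B. ITGA2, an integrin chain that binds collagen, was at 193 CPM, against 5.15 to 27.1. Among cancer-testis antigens, 4 of 14 lay above the range. MAGEC2 was at 360 CPM in WM278 and had at most 3 counts in any other sensitive library, and MAGEC1 was at 25.9 CPM with no reads in the others. SSX2 and PAGE5, which have close copies on the X chromosome, were at 2.77 and 2.36 CPM. PRAME, another antigen of this kind, went with WM1617 and WM902B, at 395 and 212 CPM, with 66.2 CPM in WM278. Of 34 HOX genes considered, 3 lay above and 3 below the range, shares near those over all genes. HOXA7, above the range, was at 26.5 CPM beside 0.549 to 3.27.

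Beyond the lists, the 15 protein-coding genes farthest above the range and the 15 farthest below it were picked by their fold to the nearest MITF-high library, with at least 10 CPM on the higher side. IGFBP3, which binds insulin-like growth factors, was at 6009 CPM in WM278, against 29.1 in WM983A, 39.8 in WM983B, 2.79 in WM1617 and 15.7 in WM902B. THBS2, a relative of THBS1, was at 1479 CPM, and the highest other library was WM1617 at 3 CPM. EFEMP1, the matrix protein fibulin-3, was at 445 CPM and COL11A1, a fibrillar collagen chain, at 170 CPM, both with under 1 CPM in every other library. SOX11, a transcription factor of developing neurons, was at 106 CPM and had no reads in the other 4 libraries, at least 494-fold lower. PAPPA, a protease that cuts IGF-binding proteins, was at 257 CPM beside at most 1.01, and PXDN, which crosslinks collagen IV, at 122 CPM beside at most 0.518. Several receptors were in this group, with all 4 MITF-high libraries under 1 CPM. RAMP1, a subunit of peptide receptors, was at 142 CPM, VIPR1, a receptor of vasoactive intestinal peptide, at 351, IL13RA2, a decoy receptor of interleukin 13, at 139 and TNFRSF10D, a decoy receptor of TRAIL, at 90.9. ADGRL4, an adhesion receptor, was at 87.1 CPM, SLC14A1, a urea transporter, at 219 CPM and LRRC17, a secreted leucine-rich protein, at 78.3 CPM.

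Of the 15 genes farthest below the range, 5 were pigment genes named above: DCT, PMEL, SLC45A2, SLC24A5 and TYR. GYG2, a glycogenin and a member of the list of MITF targets, had 3 counts in WM278 and 21.1 to 74.3 CPM in the MITF-high libraries. SERPINB1, an inhibitor of neutrophil proteases, was at 0.136 CPM, against 28.9, 38.0, 47.7 and 23.4 CPM in WM983A, WM983B, WM1617 and WM902B. QPCT, which forms N-terminal pyroglutamate, was at 0.589 CPM, against 104, 72.6, 509 and 50.6. GJB1, a connexin, was at 0.295 CPM beside 27.4 to 62.1, and ADCY1, an adenylyl cyclase, at 0.354 CPM beside 31.9 to 64.3. CEACAM1, an adhesion molecule, was at 0.52 CPM beside 34.2 to 92.4, and FUT4, a fucosyltransferase, had under 1 count, beside 15.7 to 18.9 CPM. TMC6, RENBP and ZNF532 complete the 15, at 0.648, 0.295 and 0.707 CPM in WM278 and at least 19.2 CPM in every MITF-high library.

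**Figure D5:**
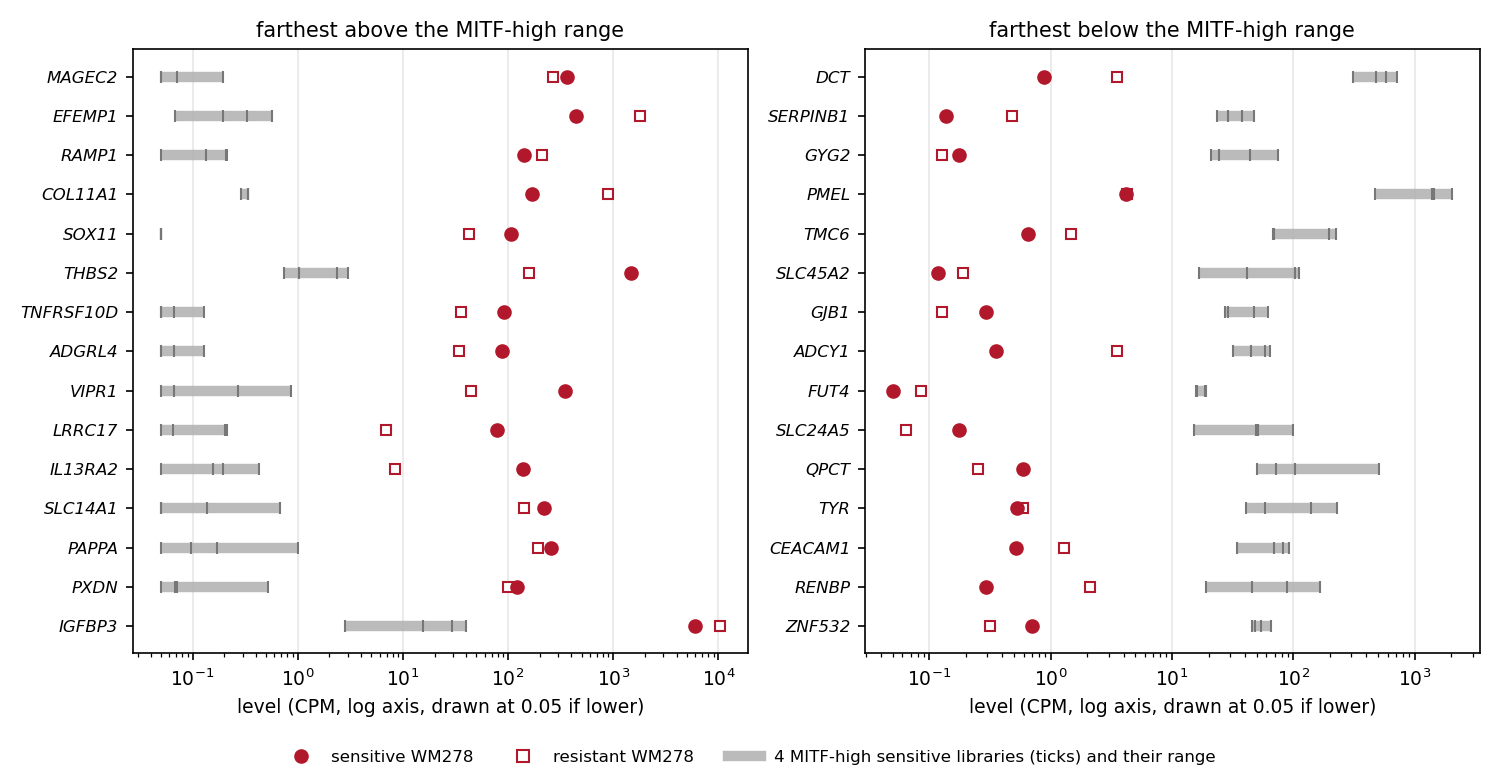
The 15 protein-coding genes farthest above (left) and below (right) the MITF-high range, in CPM on a log axis, with the 4 MITF-high sensitive libraries as ticks on a grey bar, sensitive WM278 as a red circle and resistant WM278 as an open square. Levels under 0.05 CPM are drawn at 0.05. IGFBP3 lies at 6009 CPM in sensitive and 10314 CPM in resistant WM278, and the squares lie on the same side of the bar as the circles for all 30 genes.

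The members as a whole differed in how far they lay from the range. The median gene above the range was 4.38-fold past the highest MITF-high library and the median gene below it 3.32-fold under the lowest. At least 10-fold differences numbered 306 above and 179 below, and at least 100-fold differences 37 and 7. For 228 genes above the range every MITF-high library was at or under 3 counts, and for 302 genes below it WM278 was, so that their folds are against that floor. The genes nearest the limit of 2-fold were PCAT1 and C1orf226, just inside it above the range (1.09 CPM beside at most 0.545, and 10.1 CPM beside at most 5.05), and ANKIB1 and GADD45A, just outside it (159 CPM beside at most 79.4, and 109 CPM beside at most 54.3). Below the range ZNF518B and TMEM251 were just inside it (7.19 CPM beside at least 14.4, and 3.64 CPM beside at least 7.28), and GPR157 and C9orf116 just outside it (5.89 CPM beside at least 11.8, and 0.509 CPM beside at least 1.02). Protein-coding genes made up 74.7% of the members above the range, 72.5% of those below it and 73.4% of all genes considered. By the same rule, with each other line in turn set against the remaining 4, 1725 genes lay outside the range in WM1617, 646 in WM902B, 489 in WM983B and 352 in WM983A. Pearson's r of log2(CPM + 1) across the genes considered, which are not independent replicates, was 0.821 to 0.881 between WM278 and the other sensitive libraries and 0.882 to 0.972 among those. Its lowest value was with WM1617, from the same patient.

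The resistant libraries gave a second look at the members, in cells of the same line. Resistant WM278 had 1076 genes above the range of the other resistant libraries (5.39% of the 19972 considered) and 564 below it (2.82%). Of the 1342 members above the range, 483 (36.0%) were also above it in the resistant state and 1 was below it. Of the 1158 members below the range, 252 (21.8%) were also below it and 10 were above it. The shared genes made up 44.9% of all genes above and 44.7% of all genes below the range in resistant WM278. The members had been chosen for their outlying level in sensitive WM278, which is also the base of the next shares. In resistant WM278, 408 of the members above the range (30.4%) were lower by 2-fold or more than in the sensitive library and 167 (12.4%) higher, and 445 of those below it (38.4%) were higher and 57 (4.92%) lower. Over all genes considered 7.34% were lower and 13.9% higher. INHBA was at 628 CPM in sensitive and 120 CPM in resistant WM278, and THBS2 at 1479 and 157 CPM. GPNMB was at 95.1 CPM in sensitive and 754 CPM in resistant WM278, and DCT and TYR were at 3.49 and 0.59 CPM in the resistant library. Of the 12 pigment genes below the range 3 were also below it in the resistant state, and of the 19 AXL-type genes above it 2 were also above it, CDH13 and TPM1.

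The range itself differed between the states. Of the 1158 members below the range, those with a resistant level under the sensitive level by 2-fold or more made up 50.2% in WM983A, 35.7% in WM902B, 32.6% in WM983B and 9.24% in WM1617. The shares over all genes considered were 22.3%, 12.3%, 10.8% and 5.44%. TYR was at 0.949 CPM in resistant WM983A, 2.98 in WM983B and 0.334 in WM902B, and was at 153 CPM in WM1617. Of the 1342 members above the range, 38.5% were at least 2-fold higher in resistant WM983B, 35.3% in WM983A, 33.4% in WM902B and 5.37% in WM1617, against 17.8%, 15.5%, 15.6% and 2.44% of all genes considered. EGFR was at 166 CPM in resistant WM983A, 105 in WM983B and 46.0 in WM902B, beside 54.5 CPM in resistant WM278 and 0.831 CPM in WM1617. The sensitive libraries that chose the members are also the base of these changes, so the shares are given as a description.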

How the data were processed

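mRNA was selected with oligo-dT and sequenced as single-end reads of 75 cycles, 1 library per line and state. Alignment by the authors used HISAT2 (version not given in the sources used here) and GRCh38, and genes were quantified in StrandNGS. They deposited expected counts, which include fractions of reads, and DESeq-normalized values on a log2 scale, from which the value of the line's own sensitive library had been subtracted. Strand use and the sharing of reads between overlapping genes are not given in the sources used here. In sensitive WM983B 455 expected counts were held as dates. They were rebuilt from the log2 values of resistant WM983B, and all 455 matched the digits still visible within 0.025 counts.

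Expected counts were divided by their library's total to give CPM. A gene was considered at 1 CPM or more in at least 1 of 5 libraries, levels at or under 3 counts were set to 3 counts, and a member lay at least 2-fold outside the range of the other 4 libraries. The rule was run on simulated counts, in which some genes of WM278 were moved by known folds. All lines shared 1 mean profile there, so other differences between lines were not simulated. Fits across genes and p-values were not used, because WM278 is 1 library. Intervals are 95% Wilson intervals of rounded counts. Positions and gene classes are from GENCODE release 44, and promoters from RefSeq on GRCh38.p14. Gene symbols listed with more than 1 promoter were left out of the motif search. Named genes are MITF, SOX10 and AXL, members of 24 gene lists, the 15 genes farthest above and below the range with at least 10 CPM on the higher side, and the 2 genes on each side of the limit. Neighbours of MITF were added after their values were seen. Single genes of the antigen presentation list are not reported here. The members and the lists were chosen with earlier results of these data known. Alternatives used edgeR 4.0.16 TMM factors, DESeq2 1.42.0 size factors, other filters and folds, and each library left out in turn, in R 4.3.3 and Python 3.11.15.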

Additional observations from a re-analysis of the deposited data

Results flagged for a closer look

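Each level of the 30 genes farthest outside the MITF-high range was compared among the 5 resistant libraries, which had not chosen them, and a library was marked where its gap to the nearest other library exceeded Dixon's 95% limit of 0.71 of the whole range. Chance marks about 1 in 20 groups of samples, but that rate is no yardstick here, because the genes were chosen for their outlying level in sensitive cells of the same lines. For 21 of the 30 genes 1 library stood apart. Among the genes above the range this was resistant WM278 each time, at 10314 CPM for IGFBP3, 1794 for EFEMP1, 884 for COL11A1, 267 for MAGEC2, 211 for RAMP1, 191 for PAPPA, 157 for THBS2 and 143 for SLC14A1. It was also resistant WM278 for VIPR1 at 44.3 CPM, SOX11 at 42.6, ADGRL4 at 34.2, IL13RA2 at 8.36 and LRRC17 at 6.88. Among the genes below the range it was resistant WM1617, at 1861 CPM for PMEL, 969 for DCT, 326 for QPCT, 164 for SLC24A5, 153 for TYR, 117 for SLC45A2, 74.8 for GJB1 and 52.2 for ADCY1. No library was marked in the 9 comparisons of marker levels, gene counts per line and levels of the neighbours of MITF. These included the MITF levels that set WM278 apart and the neighbours chosen after their values were seen. The absence of marks is therefore given as a description only. Gene levels were compared as CPM, not as logarithms, and on that scale a library far below the rest can go unmarked. MITF in the sensitive libraries was unmarked, at 10.1 CPM in WM278 beside 271 to 629. ZNF532 in the resistant libraries was too, at 0.318 CPM in WM278 beside 43.2 to 74.3. Why the marked libraries stood apart was not tested.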

How the results depend on the processing

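No paired analysis was made, because the members come from no test: 1 library was set against 4 others of the same state. Dixon's limit was applied only to the results flagged for a closer look. The sensitive and resistant libraries of a line were set side by side without a test. Scaling by edgeR's TMM or by DESeq2's size factors moved the median log2 difference of WM278 over all genes considered from -0.14 to -0.03 and 0.00, and with it the counts, to 1497 and 1540 genes above and 1029 and 997 below the MITF-high range. All 1342 genes above the range were kept under both, and 1028 and 997 of the 1158 below it. The share of members that lay above was 53.7% with plain CPM, 59.3% with TMM and 60.7% with DESeq2. Under both scalings 92 of 96 counts of list members stayed within 1.5 times, and under limits of 1.5-fold and 4-fold 70 of 96 did. Some of these counts were 0 under every setting. A limit of 1.5-fold gave 2041 genes above and 2189 below, of which 749 and 595 were also outside in resistant WM278, and a limit of 4-fold gave 732 and 454, of which 260 and 75 were. With 4-fold, 38 list members lay above and 25 below, in place of 58 and 39. A minimum of 5 CPM left 293 of the 483 genes above in both states. Leaving out 1 MITF-high library gave 1471 to 1598 genes above and 1334 to 1453 below. Leaving out 1 other resistant library gave 508 to 612 genes above and 277 to 384 below in both states, the 384 without resistant WM983A, in place of 252. MITF lay -5.27 to -4.75 on the log2 scale from the nearest MITF-high library when each was left out, -4.62 with TMM and -4.58 with DESeq2. Limits of 30 and 100 CPM for MITF also set WM278 apart alone. Other distances from MITF, chosen after seeing the data, are given with its neighbours, as is the count of 13 of them without resistant WM983A. With 1 library per line and state, differences between lines and between cultures of 1 line cannot be told apart, and at these depths levels under 0.219 CPM were not resolved.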

Other observations

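Genes outside the lists and the fixed rule, picked for their levels after these were seen, add to the picture of the WM278 library. Above the range, CD59, a membrane inhibitor of complement, was at 1564 CPM in WM278, against 298 in WM983A, 281 in WM983B, 236 in WM1617 and 193 in WM902B. DKK3, a secreted glycoprotein, was at 688 CPM beside at most 11.2, and FSCN1, which bundles actin, at 1246 CPM beside 287 in WM1617 and under 10 CPM in the other 3. SFRP1, a secreted WNT antagonist, was at 1271 CPM beside 41.8 to 296, and SPP1, which encodes osteopontin, at 666 CPM beside 146 in WM1617 and at most 21.1 in the rest. CD59, DKK3 and FSCN1 were above the range in the resistant state as well, at 1254, 1463 and 794 CPM.

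Below the range, HSP90AA1, a stress-inducible chaperone, was at 1014 CPM in WM278 and 2568 to 3871 CPM in the MITF-high libraries, and PRDX1, a peroxiredoxin, at 123 CPM beside 555 to 695. SCARB2, a lysosomal membrane receptor, was at 70.6 CPM beside 215 to 341, ASAH1, the acid ceramidase, at 49.6 CPM beside 145 to 342, and ATP6V1C1, a subunit of the proton pump, at 71.4 CPM beside 187 to 302. MELTF, melanotransferrin, was at 4.95 CPM beside 307 to 465, and COL9A3, a chain of collagen IX, at 9.83 CPM beside 423 to 915.

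By position, the windows of 20 protein-coding genes with the most members above the range were at the protocadherin cluster on chromosome 5, with 12, and around the UGT1A genes on chromosome 2, with 11. The UGT1A genes, and the PCDHG genes of the protocadherin window, share exons, so the division of their reads is uncertain. The protocadherin window also held PCDHB11, PCDHB12, PCDHB13 and PCDHB15 above the range. UGT1A1 was at 3.64 CPM and UGT1A10 at 3.53 CPM in WM278. Another window with 9 members above lay on chromosome 3 from 23945286 to 32502852 and held TGFBR2, the type II receptor of TGF-beta. By chromosome, members above the range made up 12% of the genes considered on chromosome 7, where the median log2 difference was 0.34, and 3.74% on chromosome 17, where it was -0.49.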
